A study of Mus musculus with 14 samples.

Results

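The Hoxa cluster is a run of homeobox genes on mouse chromosome 6, and open chromatin was described here for 9 of them: Hoxa2, Hoxa3, Hoxa4, Hoxa5, Hoxa6, Hoxa7, Hoxa9, Hoxa10 and Hoxa11. A peak was counted as a Hoxa peak where it overlapped one of these genes in the RefSeq annotation of mm10, or where one of them was its nearest protein-coding gene within 50 kb. Of the 57289 peaks in the count table, 11 met this rule. They belonged to 5 of the 9 genes: Hoxa3 had 4, Hoxa10 had 4, Hoxa9 had 2, Hoxa7 had 1, and Hoxa5 had 1 that it shared with Hoxa3. Hoxa2, Hoxa4, Hoxa6 and Hoxa11 had none by this rule.

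The assay was bulk ATAC-seq, in which the transposase Tn5 cuts accessible DNA, on long-term haematopoietic stem cells (LT-HSCs) of C57BL/6 mice sorted from bone marrow as Lin- Sca1+ cKit+ CD34- Flt3-. There were 5 libraries of aged cells given Ri, 5 of aged control cells and 4 of young control cells. Aged mice were over 80 weeks old and young mice 10 to 16 weeks old, and Ri is Rhosin, an inhibitor of the small GTPase RhoA, used at 100 µM. Every group spent 16 h in culture at low oxygen after the sort, so the control cells are cultured cells too, and Ri was present only in this incubation. The series' design calls the replicates biological. The labels do not say whether animals were pooled for a library, or whether same-numbered libraries of the aged Ri and aged groups came from the same animals. No young cells were given Ri.

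Hoxa genes encode transcription factors that set position along the body axis in the embryo, and their order on the chromosome follows their order of use along that axis. In blood, the genes of this cluster are known for high activity in stem and early progenitor cells and for their shutdown as these cells mature. Cofactors of the MEIS family bind DNA together with HOX proteins, the methyltransferase KMT2A (MLL1) keeps the genes active, and Polycomb complexes keep them silent.

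The 11 peaks are called P1 to P11 in order of coordinate. All listed genes lie on the minus strand, so the order runs from the 3' side of the cluster, by Hoxa4, to the 5' side, by Hoxa10. Each peak was 700 bp long. P1 (chr6:52191760-52192459) lay 57 bp upstream of Hoxa4, inside the long span of Hoxa3. P2 (chr6:52204140-52204839) covered the start of Hoxa5, and its centre lay 98 bp past that start. P3 (chr6:52211201-52211900) lay in the Hoxa3 span, and P4 (chr6:52212732-52213431) covered the upstream start of that gene. P5 (chr6:52217148-52217847) lay inside Hoxa7. P6 (chr6:52221460-52222159) lay between Hoxa7 and Hoxa9, 938 bp from Hoxa9, and P7 (chr6:52225909-52226608) inside Hoxa9. P8 (chr6:52230428-52231127) lay 70 bp past the 3' end of Hoxa10 and 263 bp upstream of the Mir196b hairpin. P9 (chr6:52232073-52232772), P10 (chr6:52233818-52234517) and P11 (chr6:52240038-52240737) lay inside Hoxa10, P11 next to the upstream start. Hoxa6 ended 19 bp from P2, and Hoxa11 was 1368 bp from P11. Peaks carry no strand, and P2, P3 and P4 also overlapped the antisense transcript Hoxaas3, so a peak's counts cannot be given to only one of these genes.

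The promoter under P2 is printed because P2 was the only Hoxa peak called in aged against young cells, though not in every fit. That under P4 is printed because P4 had the highest mean level of the cluster. These were the only 2 of the 9 Hoxa promoter windows in the RefSeq table for GRCm38.p6 (the assembly of mm10) that lay wholly inside a peak. Each window runs from 250 bases before the start to 50 after it and is written 5' to 3' on the minus strand. In the Hoxa5 window (chr6:52204538-52204837) the capitals mark the KLF-type motif CCACCC on either strand. In the Hoxa3 window (chr6:52213018-52213317) they mark the MEIS-type motif TGACAG, also on either strand. The mature microRNAs of Mir196b, the gene beside P8, follow with their seed, bases 2 to 8, in capitals.
Hoxa5 promoter: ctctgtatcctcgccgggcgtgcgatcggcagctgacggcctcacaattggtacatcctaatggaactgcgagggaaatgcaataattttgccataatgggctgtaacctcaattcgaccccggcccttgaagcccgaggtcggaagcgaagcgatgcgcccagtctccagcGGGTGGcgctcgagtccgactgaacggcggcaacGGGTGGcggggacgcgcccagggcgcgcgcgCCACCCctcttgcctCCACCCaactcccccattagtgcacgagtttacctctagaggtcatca
Hoxa3 promoter: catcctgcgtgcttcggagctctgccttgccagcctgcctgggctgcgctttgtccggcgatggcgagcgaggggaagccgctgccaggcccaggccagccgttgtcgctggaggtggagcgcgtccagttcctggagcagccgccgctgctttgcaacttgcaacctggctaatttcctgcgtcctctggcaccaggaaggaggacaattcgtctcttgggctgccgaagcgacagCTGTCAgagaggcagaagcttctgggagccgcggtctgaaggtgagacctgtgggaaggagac
mmu-miR-196b-5p: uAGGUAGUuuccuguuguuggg
mmu-miR-196b-3p: uCGACAGCacgacacugccuuc

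The Hoxa5 window held 29 CpG pairs and the Hoxa3 window 20, against a median of 7 over the 32851 promoter windows in the table. Among the Hoxa windows the count went down to 4, at Hoxa9. The CCACCC motif matched 4 times in the Hoxa5 window. It was found in 31.5% of all windows and in 3 of the 9 Hoxa windows. TGACAG matched once in the Hoxa3 window, and was found in 19.2% of all windows and in 2 of the 9 Hoxa windows. In all, 11 motifs were searched, and only these 2 are marked. The Hoxa5 window also had 1 match to CCAAT. The ETS, RUNX, GATA, AP-1, CRE and CTCF motifs searched matched in 0 of the 9 Hoxa windows. Neither marked motif overlaps the other as spelled, and the matches are a description of these letters only. The 2 arms of miR-196b have different seeds. The miR-196 family is known to act on Hox transcripts.

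Library totals ran from 765533 counts in young 3 up to 3176246 in aged Ri 3, and the 11 Hoxa peaks held 125 of these in young 3 and 693 in aged Ri 3, the lowest and highest. Levels below are CPM, peak counts made comparable between libraries by TMM scaling, and are not adjusted for batch, so that a fold from the fitted model can differ from the ratio of 2 means. Adjusted p-values are from edgeR's quasi-likelihood test with the sequencing batch as a term, for peaks over the 56235 that passed the filter on low counts, which all 11 Hoxa peaks did, and for sums per gene over 16561 genes. Alternative fits named below were adjusted over the features they tested. The 10 LT-HSC marker genes all had peaks (Kit and Ly6a are markers of the sort itself), and so did most markers of other cell types. These were 6 of 6 for B cells, 6 of 7 for myeloid cells, 4 of 5 for erythroid cells, 4 of 5 for megakaryocytes and 2 of 5 for T cells. Of endothelial and stromal genes 4 of 5 had peaks, and of non-haematopoietic genes 3 of 5. Those without a peak were Cd3e, Cd3g and Cd8a of T cells, S100a8 of myeloid cells, Alas2 of erythroid cells and Ppbp of megakaryocytes. Lepr of the endothelial and stromal list and Alb and Krt5 of the non-haematopoietic list also had none. The share of counts within 1 kb of gene ends was 35.9 to 46.8% in aged Ri, 38.8 to 49.6% in aged and 47.0 to 50.8% in young libraries. This share moves with the groups, and 9 of the 11 Hoxa peaks lie at such ends.

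In stem cells the cluster was most open at the upstream Hoxa3 start, beside Hoxa9 and in Hoxa7. Over the 14 libraries P4 averaged 33.4 ± 7.84 CPM, P6 32.5 ± 6.54 CPM and P5 25.5 ± 3.20 CPM (SD, n = 14). These levels were above 87.1%, 86.7% and 82.0% of all peaks. P10, inside Hoxa10, was lowest at 8.72 ± 2.03 CPM (SD, n = 14), and the other 7 peaks averaged 12.5 to 19.6 CPM. P4 exceeded P6 in 7 of 14 libraries, so these 2 had no settled order, whereas P6 exceeded P5 in 12 and P5 exceeded P7 in 13. The 6 peaks from P3 down to P9 in level (P3, P2, P8, P1, P11, P9) differed by less than their spread. The map of the cluster shows the levels by group.

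**Figure D1:**
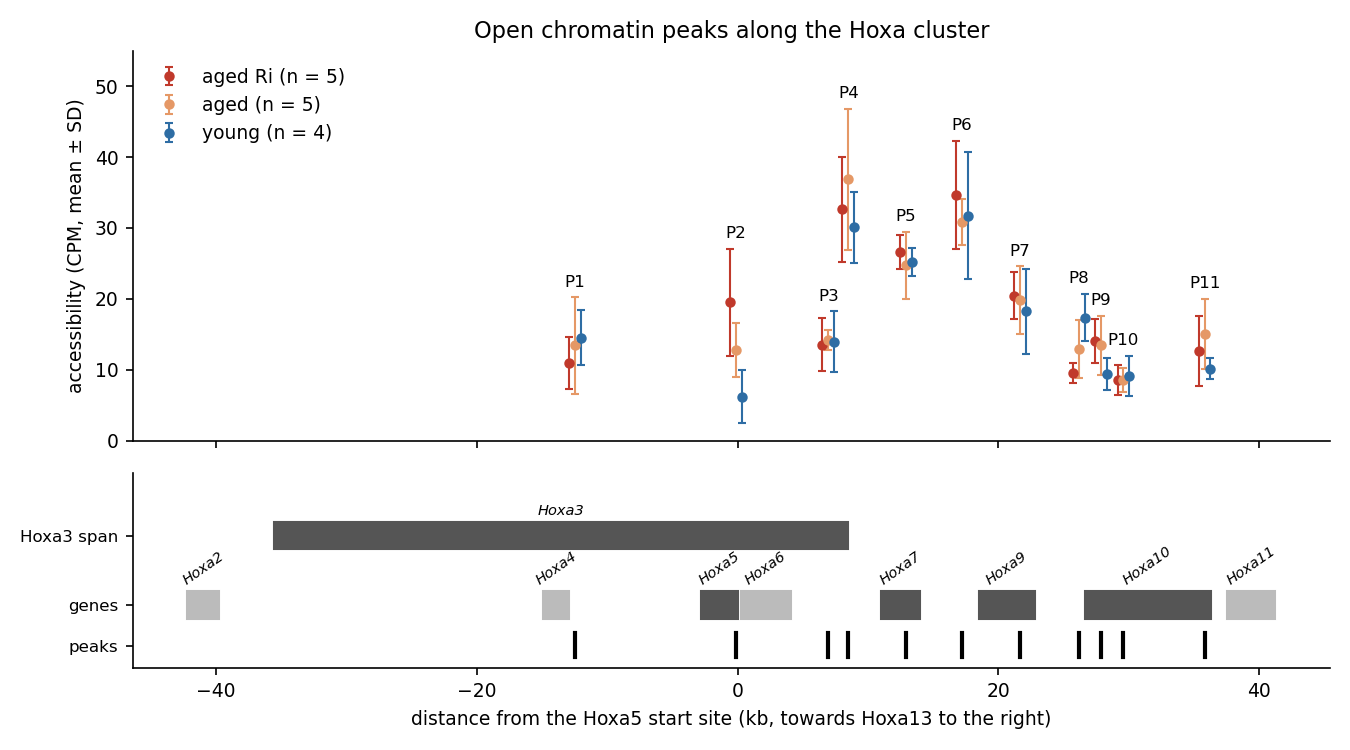
Accessibility of the 11 Hoxa peaks (CPM, mean ± SD) in aged Ri (n = 5), aged (n = 5) and young (n = 4) libraries, against the distance of the peak's centre from the Hoxa5 start in kb, with gene spans below (dark where a peak belongs to the gene, pale where none does). P4 and P6 stand highest in each group, and P2 is the peak where the 3 group means lie furthest apart.

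P4, at the upstream start of Hoxa3, had 31.8, 24.7, 44.2, 34.2 and 28.3 CPM in aged Ri libraries 1 to 5, 39.3, 30.5, 40.6, 49.96 and 24.0 CPM in aged libraries 1 to 5, and 29.8, 36.4, 24.1 and 30.0 CPM in young libraries 1 to 4. The groups overlapped throughout. Hoxa3 patterns the pharyngeal region and is needed for the thymus and parathyroid. P6, upstream of Hoxa7 and past the end of Hoxa9, had 24.0, 44.3, 31.0, 38.5 and 35.6 CPM in aged Ri libraries, 28.9, 30.5, 35.7, 32.2 and 27.2 CPM in aged libraries and 44.9, 26.1, 29.8 and 26.1 CPM in young libraries. Its highest values were those of young 1 and aged Ri 2, and the groups overlapped. Hoxa9 is the member best known in blood, as a gene needed for full stem-cell repopulation and as a partner of Meis1 in leukaemia. P5, in Hoxa7, had 24.5, 28.9, 26.1, 29.1 and 24.3 CPM in aged Ri libraries, 28.1, 27.5, 28.2, 22.6 and 17.4 CPM in aged libraries and 24.0, 28.2, 24.1 and 24.7 CPM in young libraries. P5 was the steadiest of the cluster relative to its level, with aged 5 lowest.

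The first comparison asked how the cluster differed with age. The peak at the Hoxa5 start, P2, was more open in aged than in young stem cells, and no other Hoxa peak passed the test. HOXA5 acts in lung and axial skeleton development and, in human progenitors, favours the myeloid over the erythroid lineage. Of the 11 Hoxa peaks, 1 was called in aged against young cells, while 5.72% of all peaks tested were called, 4.45% higher and 1.26% lower. The median log2 fold change was 0.11 over the Hoxa peaks and -0.01 over all peaks, and 6 of 11 Hoxa peaks lay above 0, as did 49.5% of all peaks.

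P2 held 15, 22, 44, 10 and 35 counts in aged libraries 1 to 5 and 10, 4, 8 and 13 counts in young libraries 1 to 4. As levels these were 12.03, 12.9, 16.5, 6.84 and 15.6 CPM in aged libraries and 4.44, 2.75, 11.4 and 6.29 CPM in young libraries. The groups overlapped through aged 4, which lay below young 3, and the other 4 aged libraries lay above every young library. Young 3 is the shallowest library, and its 8 counts carry an exact 95% Poisson interval of 4.90 to 22.4 CPM, for counting error only. P2 averaged 12.8 ± 3.80 CPM in aged cells (SD, n = 5) and 6.21 ± 3.72 CPM in young cells (SD, n = 4). It rose 2.37-fold in aged cells (log2 1.24 ± 0.37 SE, edgeR adjusted p = 0.0387). Within sequencing batches 1, 2 and 3 the log2 ratio of means was 1.49, 0.73 and 1.31, where batch 3 holds 1 library of each group.

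The direction of P2 held in each of the alternatives tried, but the call did not. It ended without a batch term (edgeR adjusted p = 0.0744), with loess offsets (0.0775) and with each library's gene-end share as covariate (log2 1.36, 0.341), and without aged 1, 2, 3 or 5 or young 1 or 2 (edgeR adjusted p = 0.0783 to 0.151).

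Next to P2, P8 and P1 were the Hoxa peaks with the smallest p among those lower in aged cells, and P9 the next among those higher, and none of these passed. P9, inside Hoxa10, had 8.02, 14.6, 19.5, 13.0 and 12.02 CPM in aged libraries and 7.99, 10.996, 7.10 and 11.6 CPM in young libraries, with aged 1 inside the young range. Its log2 fold change was 0.54 ± 0.29 SE (edgeR adjusted p = 0.269), and 0.10 with gene-end share as covariate (0.971). P11, at the upstream Hoxa10 start, stood at 0.55 ± 0.30 SE (edgeR adjusted p = 0.275). Hoxa10 is known for expanding blood progenitors when overexpressed and for its role in the uterus. P1, upstream of Hoxa4, had 9.62, 11.1, 5.64, 18.5 and 22.3 CPM in aged libraries and 13.3, 11.7, 12.8 and 20.3 CPM in young libraries. The aged libraries held both its lowest and its highest value (log2 -0.12 ± 0.30 SE, edgeR adjusted p = 0.856).

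The second comparison asked what Ri did to aged cells. No Hoxa peak passed the test. The group ranges of all 11 overlapped, which is a description only, since the share over all peaks is not given here. In edgeR 0 of 11 were called, and DESeq2 called 0, while edgeR called 0.446% of all peaks tested (251 peaks). At an unadjusted p under 0.05 the count was also 0 of 11, against 10.2% of all peaks. With the replicate number as a block on the aged and aged Ri libraries alone, 2292 of 51901 peaks were called but still 0 Hoxa peaks. The median log2 fold change was -0.00 over the Hoxa peaks and -0.02 over all peaks.

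P2 held 18, 26, 93, 54 and 41 counts in aged Ri libraries 1 to 5, which is 9.37, 22.1, 30.0, 19.4 and 16.6 CPM, against the aged values above. It was higher in 4 of 5 pairs of the same number, with ratios of 0.779, 1.72, 1.81, 2.84 and 1.06 for numbers 1 to 5. The mean was 19.5 ± 7.56 CPM in aged Ri and 12.8 ± 3.80 CPM in aged cells (SD, n = 5 each), and the log2 fold change of 0.56 ± 0.28 SE did not pass (edgeR adjusted p = 0.509; 0.0798 with the paired block, and up to 0.924 over all alternatives). In batches 1, 2 and 3 the log2 ratio was 0.34, 1.08 and 0.09. P8, the peak beside Mir196b, had 10.4, 9.36, 7.75, 8.99 and 11.3 CPM in aged Ri libraries and 14.4, 13.5, 7.90, 10.3 and 18.7 CPM in aged libraries. Each aged Ri value lay below the aged value of its number, in number 3 by little (ratio 0.981). This order is a description only, since the share over all peaks is not given here. The fit gave log2 -0.41 ± 0.26 SE for P8 (edgeR adjusted p = 0.647).

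For P6 the fit gave log2 0.15 ± 0.21 SE (edgeR adjusted p = 0.900). P1 had 11.98, 9.36, 5.81, 11.9 and 15.8 CPM in aged Ri libraries, inside the aged range of 5.64 to 22.3 CPM (log2 -0.25 ± 0.28 SE, edgeR adjusted p = 0.860). The remaining Hoxa peaks lay between -0.22 (P11) and 0.11 (P5) on the log2 scale. The plot of P2 and P8 by library shows both peaks in all 3 groups.

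**Figure D2:**
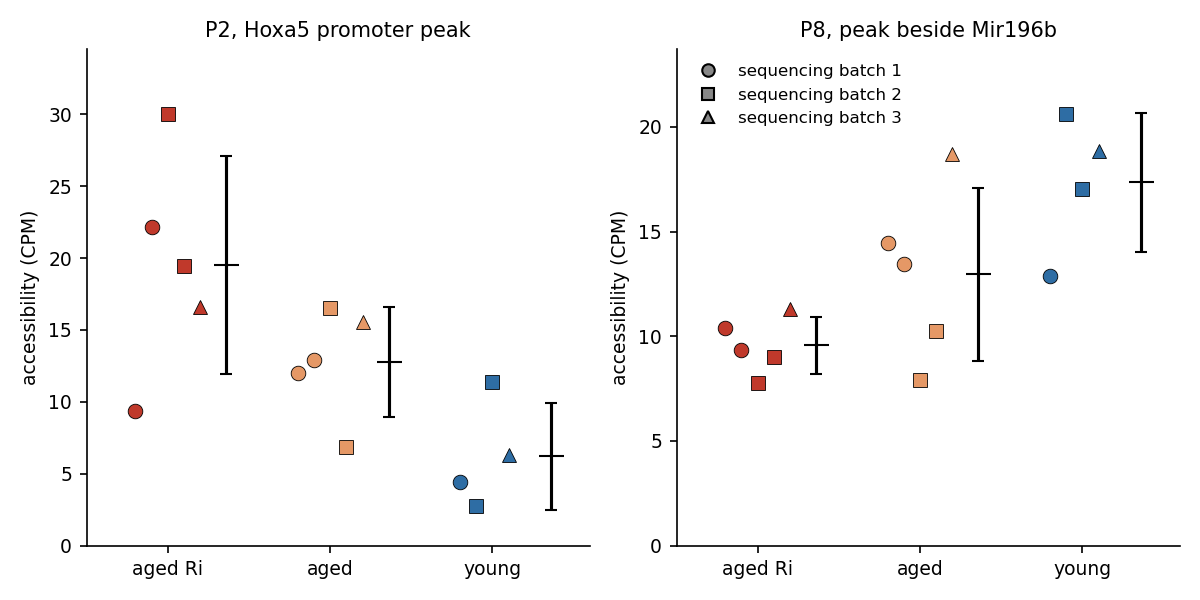
Accessibility (CPM) of P2 at the Hoxa5 start and P8 beside Mir196b in each aged Ri (n = 5), aged (n = 5) and young (n = 4) library, with symbols by sequencing batch and bars for mean ± SD. At P2 the young libraries lie between 2.75 and 11.4 CPM, and at P8 the aged Ri libraries, at 7.75 to 11.3 CPM, all lie below the young ones, at 12.9 to 20.6 CPM.

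The third comparison set aged Ri cells against young cells. It shares the aged Ri libraries with the second and the young libraries with the first, so its values are not independent of either. P2 at the Hoxa5 start was higher and P8 beside Mir196b was lower in aged Ri cells, and the other 9 peaks did not pass. These 2 of 11 compare with 11.5% of all peaks called, 7.9% higher and 3.56% lower. The median log2 fold change was 0.09 over the Hoxa peaks and -0.03 over all peaks, with 8 of 11 Hoxa peaks above 0 against 47.8% of all peaks.

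P2 averaged 19.5 ± 7.56 CPM in aged Ri (SD, n = 5) and 6.21 ± 3.72 CPM in young cells (SD, n = 4), and it rose 3.49-fold (log2 1.80 ± 0.36 SE, edgeR adjusted p = 0.00100). Aged Ri 1, at 9.37 CPM, was the only aged Ri library below young 3, and the other 4 lay above every young library. The log2 ratio was 1.83, 1.81 and 1.40 in batches 1, 2 and 3. The call held in each of the alternatives and left-out libraries, with adjusted p from 0.000570 to 0.0385.

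P8 held 20, 11, 24, 25 and 28 counts in aged Ri libraries 1 to 5 and 29, 30, 12 and 39 counts in young libraries 1 to 4. In young cells these were 12.9, 20.6, 17.0 and 18.9 CPM. It averaged 9.57 ± 1.37 CPM in aged Ri (SD, n = 5) and 17.3 ± 3.32 CPM in young cells (SD, n = 4), and the ranges did not overlap, which held for 2.45% of all peaks in this direction. P8 fell 1.78-fold (log2 -0.83 ± 0.27 SE, edgeR adjusted p = 0.0398), with log2 ratios of -0.38, -1.17 and -0.74 in batches 1, 2 and 3.

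The P8 call ended without a batch term (edgeR adjusted p = 0.0621), with each library's gene-end share as covariate (0.406), in a fit of these 2 groups only (0.0732), and without any one aged Ri library (0.0514 to 0.115), young 2 (0.194) or young 3 (0.0785). In aged against young cells P8 stood at log2 -0.43 ± 0.27 SE (edgeR adjusted p = 0.354). P9 had 13.0, 11.1, 16.8, 11.5 and 17.8 CPM in aged Ri libraries, of which aged Ri 2 and 4 lay inside the young range, and its log2 fold change of 0.58 ± 0.28 SE did not pass (edgeR adjusted p = 0.181). With gene-end share as covariate it was 0.11 (edgeR adjusted p = 0.965). P1 had a log2 fold change of -0.37 ± 0.30 SE (edgeR adjusted p = 0.438).

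**Figure D3:**
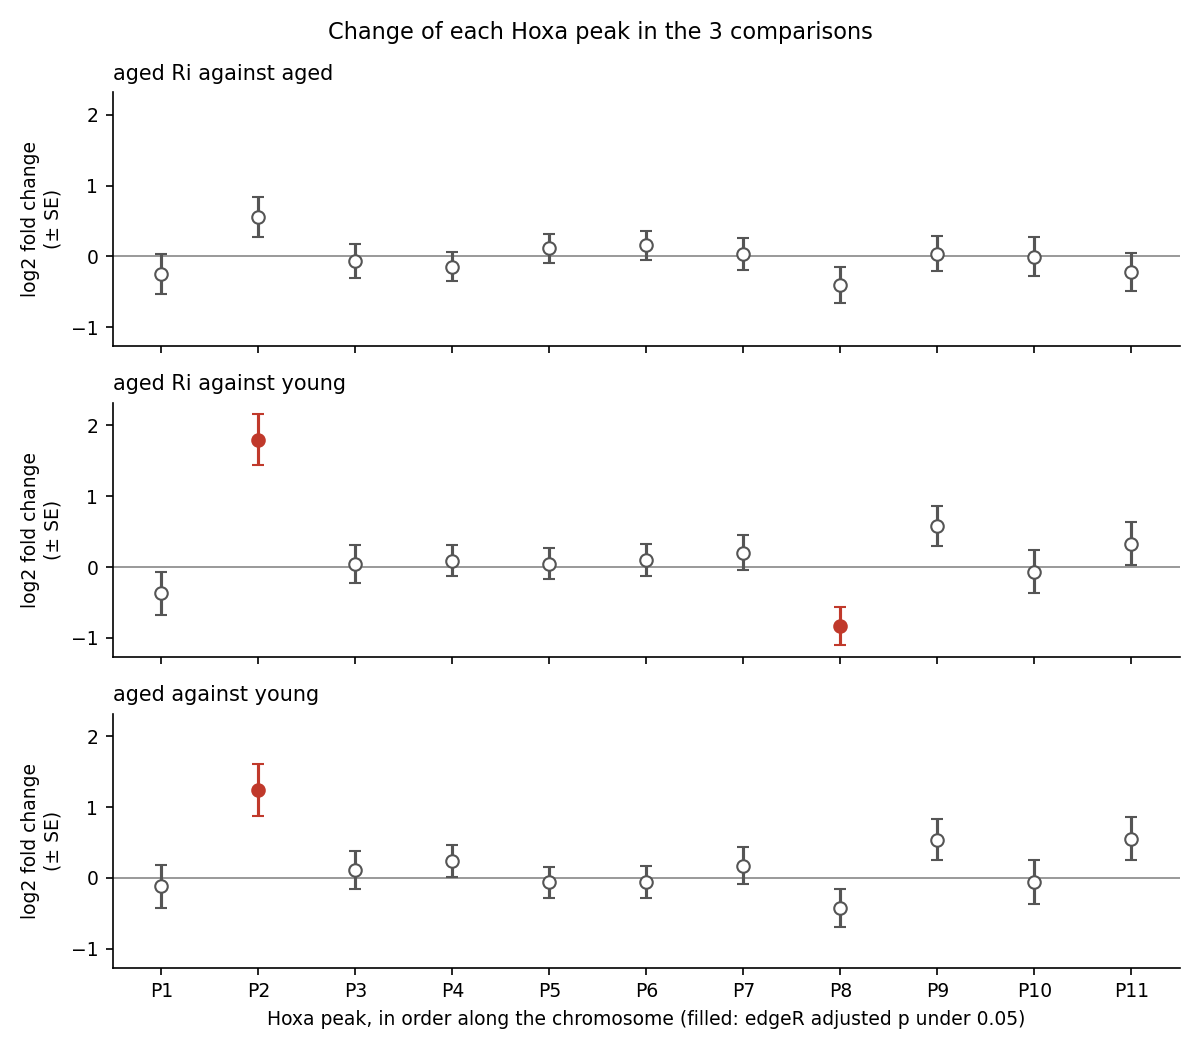
Log2 fold change ± SE (edgeR) of each Hoxa peak in the 3 comparisons, with peaks in chromosome order and filled points where the adjusted p was under 0.05. P2 stands at 1.80 in aged Ri against young and 1.24 in aged against young cells, and P8 at -0.83 in aged Ri against young cells.

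The total over the cluster was not tested. The 11 peaks summed to 203 ± 19.7 CPM in aged Ri cells (SD, n = 5), 203 ± 14.9 CPM in aged cells (SD, n = 5) and 186 ± 10.0 CPM in young cells (SD, n = 4). Without P2 the sums were 184 ± 15.7 CPM in aged Ri, 190 ± 14.3 CPM in aged and 180 ± 12.05 CPM in young cells. P1 to P5, the side of Hoxa3 to Hoxa7, summed to 103 ± 11.8 CPM in aged Ri, 102 ± 6.61 CPM in aged and 90.0 ± 4.18 CPM in young cells (SD), and the 3 ranges overlapped. P6 to P11, the side of Hoxa9 and Hoxa10, summed to 99.9 ± 9.68 CPM, 100.7 ± 13.1 CPM and 96.1 ± 8.60 CPM in the same groups. P2 took 9.48 ± 3.24% of the cluster's counts in aged Ri, 6.30 ± 1.81% in aged and 3.38 ± 2.14% in young libraries (SD). P8 took 4.76 ± 0.91%, 6.51 ± 2.40% and 9.29 ± 1.49% in the same groups. By mean level P2 ranked 5th of the 11 peaks in aged Ri cells, 10th in aged cells and 11th in young cells, where it was the lowest peak in young 1, 2 and 4. The heat map of all 11 peaks shows these shifts by library.

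**Figure D4:**
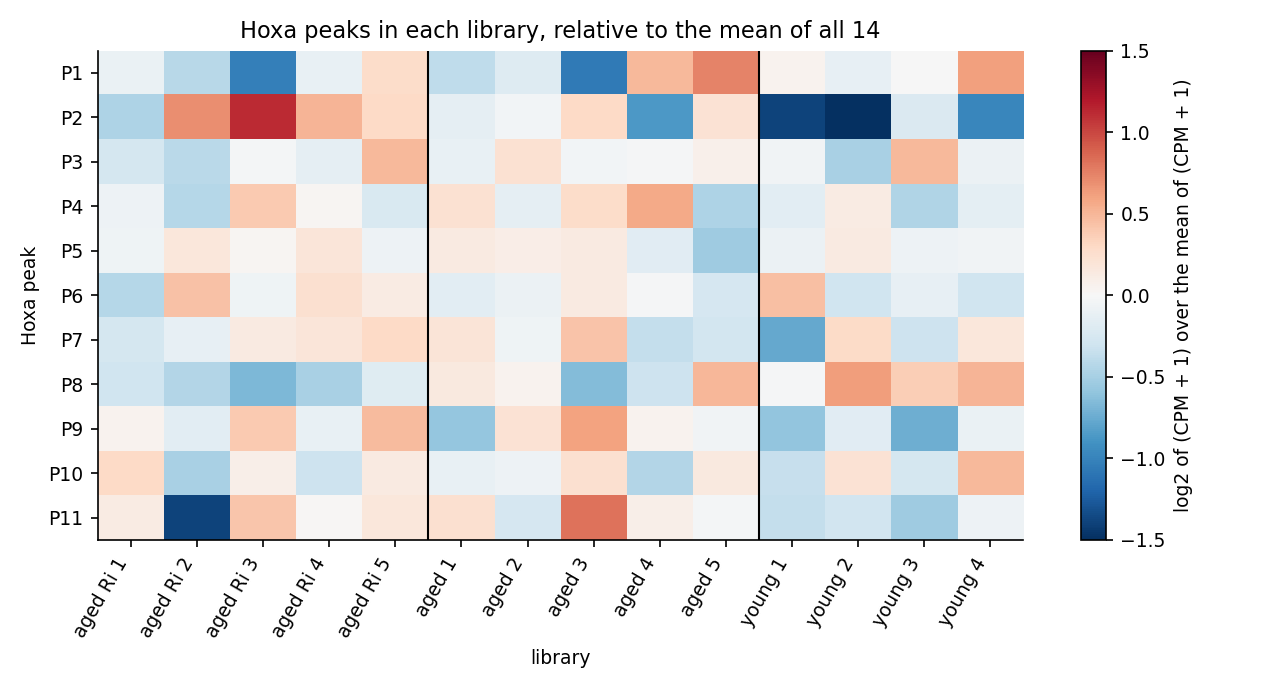
Each Hoxa peak (rows) in each library (columns; aged Ri, aged and young from left to right), coloured by the log2 of its CPM + 1 over the mean of CPM + 1 across the 14 libraries. P2 is deep blue in young 1, 2 and 4 and red in aged Ri 2 and 3, whereas most other peaks vary by library with no block of colour for a group.

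Summed over each gene's peaks, Hoxa3 had 78.6 ± 12.2 CPM in aged Ri, 79.0 ± 6.15 CPM in aged and 60.8 ± 2.76 CPM in young cells (SD). Its 5 aged libraries, at 70.6 to 87.9 CPM, and its 5 aged Ri libraries, at 64.6 to 98.0 CPM, lay above the young ones at 57.7 to 63.3 CPM, which held for 4.2% of all gene sums in aged and 6.53% in aged Ri against young cells. Gene sums were scaled apart from single peaks, so their values differ a little. The Hoxa3 sum did not pass (aged against young log2 0.38 ± 0.14 SE, edgeR adjusted p = 0.101; aged Ri against young log2 0.38 ± 0.14 SE, 0.0652), and it includes P2.

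Hoxa5, whose sum is P2 alone and is no separate evidence, was 2.56-fold higher in aged than in young cells (edgeR adjusted p = 0.0310) and 3.77-fold higher in aged Ri than in young cells (edgeR adjusted p = 0.00114). For this gene the sums were 11.2 to 31.4 CPM in aged Ri, 6.76 to 17.1 CPM in aged and 2.62 to 10.5 CPM in young cells. Of the 5 Hoxa gene sums it was the only one called in these 2 comparisons, where 5.4% and 11.7% of all gene sums were called. In aged Ri against aged cells 0 of 5 were called in edgeR, against 0.139% of all gene sums. There the count was 0 in DESeq2, and 0 at an unadjusted p under 0.05, against 8.63% of all gene sums.

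The sums of Hoxa7 averaged 27.3 ± 2.05 CPM in aged Ri, 25.6 ± 6.32 CPM in aged and 23.8 ± 2.14 CPM in young cells (SD). Those of Hoxa9 averaged 56.0 ± 4.86 CPM, 52.1 ± 9.32 CPM and 47.1 ± 5.53 CPM in the same groups, and those of Hoxa10 46.5 ± 11.9 CPM, 51.2 ± 7.54 CPM and 43.3 ± 7.65 CPM. None of these 3 passed in any comparison. Their log2 fold changes ran from 0.04 (Hoxa7) to 0.26 (Hoxa10) in aged against young cells, and from -0.14 (Hoxa10) to 0.11 (Hoxa7 and Hoxa9) in aged Ri against aged cells.

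The pathway list held 48 genes that act with, on or downstream of the Hoxa genes or lie beside them. Of their gene sums 4 were called in aged against young cells, all of them higher. In aged Ri against young cells 8 rose and 5 fell. In aged Ri against aged cells 0 of the 48 were called in edgeR and 0 in DESeq2, with 3 and 2 at an unadjusted p under 0.05. This compares, in edgeR, with 0.139% of all gene sums called and 8.63% at an unadjusted p under 0.05. Of all gene sums, 4.46% rose and 0.936% fell in aged against young cells, and 8.45% rose and 3.26% fell in aged Ri against young cells. Ezh1, a Polycomb methyltransferase that keeps Hox genes silent, rose 2.12-fold in aged against young cells (edgeR adjusted p = 0.00155) and 1.93-fold in aged Ri against young cells (0.00208). The 12 genes grouped under Polycomb in the list, the demethylase Kdm6b among them, had a median log2 fold change of -0.31 and -0.25 in these comparisons. Over all genes the medians were -0.02 and -0.03. Of the 12 genes grouped under Polycomb, 1 was called lower in aged Ri against young cells.

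Igf1r, a growth factor receptor, rose 1.35-fold and Lmo2, a stem-cell transcription cofactor, 1.41-fold in aged against young cells (edgeR adjusted p = 0.0364 and 0.0482). In aged Ri against young cells Kmt2a, the methyltransferase that keeps Hox genes active, fell 1.87-fold (edgeR adjusted p = 0.00525), and Rarg, a retinoic acid receptor, rose 1.48-fold (0.0130). The list holds 10 genes of activating complexes, Kmt2a among them. In this comparison 1 of the 10 was called higher and 2 lower, with a median log2 fold change of -0.20. With one library left out at a time, Ezh1 and Kmt2a kept their calls in 9 of 9 fits in each comparison named, whereas Igf1r lost its call in 5 of 9 (edgeR adjusted p up to 0.190) and Lmo2 in 6 of 9 (up to 0.294). Without young 1, Rarg was no longer called in aged Ri against young cells (edgeR adjusted p = 0.103). With no batch term Igf1r (edgeR adjusted p = 0.0736) and Lmo2 (0.0765) were not called in aged cells, nor Rarg in aged Ri cells (0.0883). Ezh1 and Kmt2a were still called in that fit. Gene-end share as covariate was fitted for peaks only, so none of these gene sums was tested with it. The 10 LT-HSC marker genes summed to 1087 to 1458 CPM in aged Ri, 1001 to 1507 CPM in aged and 782 to 1010 CPM in young libraries. Of these 10, 4 rose in aged and 5 in aged Ri cells, each against young cells, where 4.46% and 8.45% of all gene sums rose. The aged Ri and aged means of the marker sums were 1255 and 1250 CPM.

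Megakaryocyte markers summed to 256 to 316 CPM in aged Ri, 302 to 386 CPM in aged and 169 to 282 CPM in young libraries, and erythroid markers to 77.9 to 119 CPM in aged Ri, 84.2 to 135 CPM in aged and 67.4 to 79.1 CPM in young libraries. In both lists the aged range lay above the young range, and the aged Ri range overlapped the young range. Among single gene sums 4.2% lay wholly above young in aged cells, and no such share was computed for summed lists. Of the megakaryocyte markers 1 was called higher in aged and 1 in aged Ri cells, each against young cells. Of the erythroid markers 1 and 0 were. These counts compare with 4.46% and 8.45% of all gene sums called higher. For the 6 B-cell markers the sums were 105 to 147 CPM in aged Ri, 96.2 to 187 CPM in aged and 95.9 to 380 CPM in young libraries, and these ranges overlapped. Their median log2 fold change was -0.92 in aged and -1.09 in aged Ri cells, each against young cells. Of these markers 0 and 1 were called lower, against 0.936% and 3.26% of all gene sums. Over all genes the medians were -0.02 and -0.03. In bulk cells, fewer cells of a type and less open chromatin per cell cannot be told apart, and the part of such markers in the Hoxa results was not tested.

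Under the same rule of assignment, the Hoxb cluster had 20 peaks. Of these, 3 rose in aged against young cells and 5 in aged Ri against young cells, where 4.45% and 7.9% of all peaks rose. The median log2 fold change of the Hoxb peaks was 0.62 and 0.54 in these comparisons, beside 0.11 and 0.09 for the Hoxa peaks. The 4 Hoxc peaks had medians of 0.37 and 0.60, with 0 and 1 called higher. The 3 Hoxd peaks had medians of 0.15 and 0.71, with 0 and 0 called higher. These differences between clusters were not tested.

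Of 7114 genes outside the locus, those whose summed accessibility followed the Hoxa sum most closely over the 14 batch-centred libraries were 4931414P19Rik (Pearson r = 0.93), Cyp2j9 (0.92), Msantd4 (0.92), Myo6 (0.91) and Trim30a (0.91). The points share their libraries and depth, and with so many genes compared this order is a description only.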

How the data were processed

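The authors deposited whole-number read counts per consensus peak and library, in 700 bp peaks. Per the submitters' processing notes, the build was mm10 and the tools included SAMtools 1.14, R 4.2.0 and featureCounts. The aligner, the peak caller, duplicate handling and any Tn5 shift are not given in the sources used here. Libraries were grouped by the labels, with 3 sequencing batches that each hold all 3 groups. Depth ran from 765533 to 3176246 counts.

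Counts were tested in R 4.3.3 with edgeR 4.0.16 (TMM scaling after filterByExpr by group, robust quasi-likelihood fit of all 14 libraries with group and batch terms, Benjamini-Hochberg over all 56235 peaks or 16561 gene sums tested, threshold 0.05). A gene sum adds the peaks overlapping a protein-coding gene or nearest to it within 50 kb, and a peak over several genes counts for each. SE came from the log2 fold change and its F statistic. The tests were run on simulated counts with the same spread for every feature and no batch effect. That run checked the direction and size of set fold changes, and is no support for the calls in these libraries. DESeq2 1.42.0 was an alternative. Intervals cover counting error only, since reads without molecular identifiers are not independent molecules. P-values measure the spread between libraries.

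Per-library values are given for Hoxa peaks called in any comparison, for the 2 with the smallest p in each direction of a comparison, for the 3 highest peaks and for called gene sums. Up to 4 called genes of the pathway list were named per comparison, by p. P11 was named after its values were seen. Results for some genes these rules name are not reported here. The members and lists were chosen with earlier results of these data known.

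Aged Ri and aged libraries of the same number deviated together (r = 0.144 to 0.646 for 5 pairs, batch not removed, over 25903 peaks). In number 4 this r, 0.277, lay below the highest with another number, 0.284. The numbers were used as pairs for the ratios and the replicate blocks, but not in the fit with group and batch terms. Each same-number pair also shares a batch, and with batch removed r ran from -0.217 to 0.475. There, only number 3 exceeded its highest r with another number (0.475 against 0.197). Numbers did not pair young with the other libraries. No 2 libraries of a group agreed within sampling noise (lowest chi-square per degree of freedom 1.46). Promoter and microRNA sequences are RefSeq's. Plots used Python 3.11.15 with matplotlib 3.10.9.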

Additional observations from a re-analysis of the deposited data

Results flagged for a closer look

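P5, the peak in Hoxa7, had 28.2 CPM in young 2, against 24.0, 24.1 and 24.7 CPM in the other 3 young libraries, and was noted because that library lay far from the rest of its group. The aged Ri range was 24.3 to 29.1 CPM and the aged range 17.4 to 28.2 CPM, so the value lies within what those libraries show. It was the 1 such case among 33 groups of values checked, where chance flags about 1 in 20.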

How the results depend on the processing

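P2 in aged Ri against young cells and every Hoxa count of 0 in aged Ri against aged cells kept their call under each alternative run. The count of Hoxa peaks called in aged against young cells was 0 in place of 1 with no batch term, with loess offsets and with gene-end share as covariate, and 0 to 1 with one library left out. In aged Ri against young cells the count was 1 in place of 2 with no batch term, with the covariate, with the 2 groups only and with only peaks overlapping a listed gene (P8 does not overlap one), and 1 to 2 with one library left out. For Hoxa gene sums it was 0 in place of 1 with loess offsets (aged against young; 0 to 1 with one library left out), and 1 to 2 with one library left out (aged Ri against young), where Hoxa3 was called without aged Ri 2 (edgeR adjusted p = 0.0262) or aged Ri 4 (0.0404). P1, which never passed, turned to log2 0.25 (aged against young) and 0.036 (aged Ri against young) with the covariate. With one library left out, P1 ran from -0.38 to 0.10 in aged against young and from -0.45 to 0.018 in aged Ri against aged cells. With loess offsets Igf1r (edgeR adjusted p = 0.0711) and Lmo2 (0.0643) lost their calls in aged against young cells. With the covariate P9 moved to 0.10 (aged against young) and 0.11 (aged Ri against young). The covariate was fitted for peaks only, so no gene sum was tested with it. The cause of the changes above was not tested. The replicate block changed no Hoxa call: it gave 1 called peak in aged and 2 in aged Ri cells, each against young cells, and 0 in aged Ri against aged cells. This block takes the place of the batch term and ties young libraries to the others by number. Since numbers did not pair young libraries with the others, it is no support for the calls against young cells. P2 stood at log2 1.08 with the block in aged against young cells (edgeR adjusted p = 0.0467). Over all peaks in aged against young cells, 3214 were called, 2504 of them higher, against 3408 and 2268 with loess offsets, 145 and 144 with the covariate, 1808 and 1594 with no batch term, and 5635 and 3447 with the replicate block. In aged Ri against aged cells the 251 calls became 51 with no batch term and 819 with the 2 groups only. In aged Ri against young cells the 6443 became 559 with the covariate and 4204 with no batch term. Single Hoxa peaks held few counts per library (4 to 93 at P2, 5 to 52 at P9 and 5 to 62 at P11), which limits the precision of each value.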

Other observations

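A pair of peaks outside the rule was nearest to Evx1, a homeobox gene beyond the 5' end of the cluster. The peak at chr6:52303315-52304014 averaged 10.7 ± 2.62 CPM in aged Ri cells (SD, n = 5), 6.63 ± 0.72 CPM in aged cells (SD, n = 5) and 6.46 ± 1.42 CPM in young cells (SD, n = 4), and did not pass in aged Ri against aged cells (log2 0.70 ± 0.27 SE, edgeR adjusted p = 0.317) or in aged Ri against young cells (log2 0.84 ± 0.31 SE, edgeR adjusted p = 0.0697). The peak at chr6:52305843-52306542 averaged 5.62 ± 2.19 CPM in aged Ri, 7.82 ± 2.49 CPM in aged and 10.9 ± 7.67 CPM in young cells, and did not pass in aged Ri against young cells (log2 -0.93 ± 0.33 SE, edgeR adjusted p = 0.0612).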
